A study of Mus musculus with 12 samples.

Results

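The steep graded risers are 178 array features measured in the mouse embryonic eyelid. On the authors' deposited scale their signal climbed steeply and stepwise between embryonic days E14.5 and E16.5. They were chosen from the 41999 features of the authors' deposited table of log10 values. For each feature the 4 arrays of a day, both genotypes together, were averaged. A feature was kept where E16.5 exceeded E14.5 by at least 8-fold, where 25% to 75% of that rise had been reached at E15.5, and where the eyelid signal was flagged well above background on all 4 E16.5 arrays. Of the 309 features that rose this far and passed the background flag, 178 had this intermediate E15.5 position, 61 had reached less than 25% of the rise and 70 more than 75%. A further 4 features met the rise and position limits without passing the flag.

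The samples were eyelids microdissected from C57BL6/J wild-type embryos and from Tabby embryos, in which the ectodysplasin gene Eda is mutated. Both genotypes were sampled on each of the 3 days, with E15.5 in the middle and 2 arrays per group, called biological replicates in the labels, which gives 12 arrays. Each array compared eyelid RNA in the green dye Cy3 with a common reference in the red dye Cy5, which combined RNA of embryonic stem cells with a pool made from mouse cell lines. No array had the dyes swapped. Whole eyelids were used, so fewer cells of a type and less RNA per cell cannot be told apart in any value below. Each slide held the 4 arrays of 1 day, so slide and day cannot be told apart. Wild-type arrays lay at positions 1 and 2 of every slide and Tabby arrays at positions 3 and 4, and the effects of these positions cannot be told apart from those of genotype. The sources used here do not say whether a sample came from 1 embryo or a pool, and p-values measure only the spread between these arrays.

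Between these days the embryonic lids grow across the eye and fuse, and the lid epidermis begins to stratify towards a cornified layer. Meibomian glands, the lipid-secreting glands of the lid margin, arise later from ingrowths of the lid epithelium. Ectodysplasin is a ligand of the tumour necrosis factor family that signals through its receptor Edar to NF-kB, and Tabby mice lack Meibomian glands. The study asked which genes depend on Eda in this setting. The array features carry 60-base sequences and identifiers but no gene symbols, so members are named by identifier, and the roles of most of them are not known here. The labelled tissue could not be checked against marker genes for the same reason.

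The sequences below show the member that passed the genotype test given further on, listed first, and the probes that share bases with it. Capitals mark the run of bases that the probe shares exactly with the first probe listed, or, for that probe, with Z00026043-1.

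Z00060172-1: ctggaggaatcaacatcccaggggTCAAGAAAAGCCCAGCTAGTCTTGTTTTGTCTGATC
Z00026084-1: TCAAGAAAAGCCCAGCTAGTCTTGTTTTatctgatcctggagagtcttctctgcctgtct
Z00026043-1: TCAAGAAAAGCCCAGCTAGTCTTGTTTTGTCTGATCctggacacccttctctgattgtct

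Z00060172-1 and Z00026084-1 are steep graded risers. Z00026043-1 rose 18.1-fold on the deposited scale, against 68.6-fold and 59.5-fold for these members. On that scale it had reached 13.5% of its rise at E15.5, so it falls outside the set by its timing there. Z00060172-1 and Z00026043-1 share 36 bases without a mismatch. Z00060172-1 and Z00026084-1 align over 36 bases with 1 difference, G53A, counted from the 5′ end of Z00060172-1 and giving its base first. Z00026084-1 and Z00026043-1 align over all 60 bases with 6 differences. Whether these probes report 1 transcript or several is not known here.

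The median steep graded riser read slightly below the reference at E14.5 and well above it at E16.5. At E14.5, 87 members were well above background on all 4 arrays and 57 on none. For many members the E14.5 ratio therefore rests on signal near background. Levels are given as log2 of eyelid over reference after background correction and loess normalisation, on which scale 0 means equal signal. The median member lay at -0.24 at E14.5, 0.37 at E15.5 and 2.04 at E16.5 over the 4 arrays of each day, whereas the median of all 32981 tested features stayed at 0.02, 0.02 and 0.03. By array, the member median was -0.30 and -0.23 in wild type and -0.20 and -0.23 in Tabby at E14.5. At E15.5 it was 0.17 and 0.56 in wild type and 0.62 and 0.25 in Tabby. At E16.5 it was 2.23 and 2.00 in wild type and 2.08 and 2.06 in Tabby. The E15.5 arrays of either genotype thus stood further apart than those of the other days. Of the 178 members, 53 exceeded the reference at E14.5, 134 at E15.5 and 169 at E16.5.

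**Figure D1:**
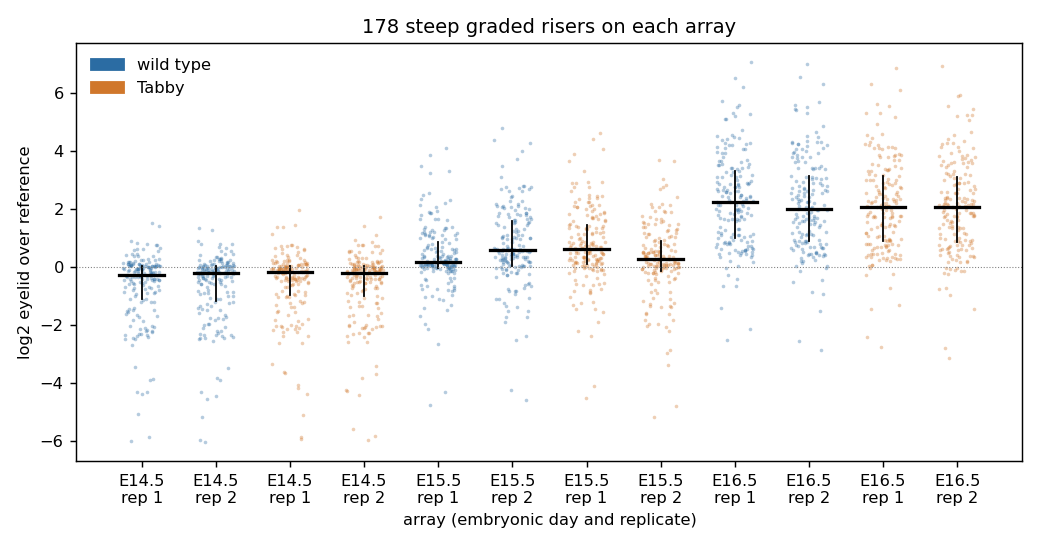
The plot shows log2 eyelid over reference (vertical axis) for the 178 steep graded risers on each of the 12 arrays (horizontal axis, by embryonic day and replicate; blue wild type, orange Tabby). Each point is a member, the thick bar is the median and the thin line spans the quartiles. Medians run from -0.30 to -0.20 at E14.5, from 0.17 to 0.62 at E15.5 and from 2.00 to 2.23 at E16.5.

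On the authors' deposited log10 scale, which chose the members, the rise ran from 8.04-fold to 384-fold with a median of 17.0-fold. It was under 16-fold in 83 members, from 16-fold to under 32-fold in 50, from 32-fold to under 64-fold in 24 and at least 64-fold in 21. These values describe the choice and were not tested. In log2 ratio, the scale used for the tests, 83 of the 178 members rose by 3 or more, which is 8-fold. There 22 members rose by less than 1, and the smallest rise was 0.31. On the log2 ratio scale every E16.5 array lay above every E14.5 array in all 178 members. In 151 of them, 84.8%, every E15.5 array also lay between the 2 outer days without overlap, against a background of 8.13% of all tested features. The rule used these days, so nothing is read from that difference or from the count of 178. The E15.5 arrays overlapped those of E14.5 in 26 members and those of E16.5 in 3.

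The steepest member was Z00040631-1, with a 384-fold rise on the deposited scale. Its log2 ratios were -0.10 and 0.11 in wild type and -0.02 and -0.08 in Tabby at E14.5, and 0.05, 0.51, 0.66 and -0.16 at E15.5 in the same order. At E16.5 they were 7.05 and 6.97 in wild type and 6.84 and 6.93 in Tabby, so the genotypes lay close together at the top of the course. It was below background on all 4 E14.5 arrays, on 2 of the 4 E15.5 arrays and, in the reference channel, on 4 of 12 arrays. Measured against the background limit in the eyelid channel alone, its rise was at least 213-fold in wild type and at least 200.4-fold in Tabby. Such a limit divides the mean E16.5 signal by the higher of the probe's own E14.5 signal and the dimmest signal that was well above background on those arrays.

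The next members by deposited rise were Z00028697-1 at 259-fold, Z00051631-1 at 209-fold and Z00024839-1 at 153-fold. Z00051631-1 was the steepest member measured above background on all 12 arrays. It went from log2 ratios of -1.58, -1.65, -1.27 and -1.58 at E14.5 to 5.31 and 5.43 in wild type and 5.17 and 5.06 in Tabby at E16.5. Its E15.5 values were 1.85 and 2.61 in wild type and 2.24 and 1.47 in Tabby, each far from both outer days. Z00028697-1 spread more widely at E16.5, with 5.19 and 4.29 in wild type and 4.21 and 3.79 in Tabby. Below them came Z00026220-1 at 136-fold, Z00033363-1 at 108-fold, Z00075297-1 at 105-fold and Z00075312-1 at 98.1-fold. Several of these started below background, where only lower limits in the eyelid channel are known. In wild type the rise was at least 31.9-fold for Z00028697-1 and at least 12.2-fold for Z00075312-1. The limits in wild type and Tabby were 26.4-fold and 18.0-fold for Z00024839-1, and 7.70-fold and 5.30-fold for Z00075297-1. The smallest rises in the set belonged to Z00000496-1 and Z00074251-1, at 8.04-fold and 8.05-fold.

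Many members started below what the arrays could measure. At E14.5, 87 members were well above background on all 4 arrays, 34 on 1 to 3 and 57 on none. At E15.5 these numbers were 146, 28 and 4. The rule required detection on all 4 arrays at E16.5 and used the E15.5 level, so these counts only describe the set. Of the 57 members detected on no E14.5 array, 26 were detected on all 4 E15.5 arrays, 27 on 1 to 3 and 4 on none. The 87 members detected at E14.5 were detected on all 12 arrays, 48.9% of the set against 88.2% of all tested features. They rose by a median of 14.4-fold on the deposited scale, against 23.8-fold for the other members. On the log2 ratio scale the order was the other way round, with median rises of 3.42 and 1.79. The cause of this difference between the scales was not tested. As lower limits in the eyelid channel, the rises of the 71 members below background on both wild-type E14.5 arrays ran from at least 1.16-fold to at least 213-fold, and 13 of these limits reached 8-fold. In Tabby there were 61 such members, with limits from 1.15-fold to 200.4-fold, 8 of which reached 8-fold.

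The members spanned a wide range of levels relative to the reference. At E16.5 the highest ratios were those of Z00040631-1 at 6.95, Z00022762-1 at 6.26 and Z00024666-1 at 6.17. Z00022762-1 held log2 ratios of 0.37, 0.07, -0.14 and 0.06 at E14.5 and 6.50, 6.54, 6.09 and 5.92 at E16.5, with the wild-type pair listed first. Z00024666-1 had come most of the way by E15.5, at 4.09 and 4.77 in wild type and 4.62 and 3.64 in Tabby. The lowest ratios at E16.5 were those of Z00038583-1 at -2.83, Z00003616-1 at -2.49 and Z00031095-1 at -1.48. Z00038583-1 rose from -6.02, -6.05, -5.95 and -5.98 at E14.5 to -2.52, -2.87, -2.78 and -3.14 at E16.5, always below the reference. In the reference channel 134 members, 75.3%, were well above background on all 12 arrays, against 92.9% of all tested features, and 18 members, 10.1%, on none, against 2.03%.

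Only 3 members could be placed in the genome, by exact matches to RefSeq promoter windows of the GRCm38.p6 build. Each window spans the start of a gene. Over the array, 492 of 42006 features matched such a window over at least 20 bases. Z00038074-1 lies at chr9:50505002-50505061 on the plus strand, within the span of the protein-coding gene Plet1 and 578 bases before its end, on the same strand. Plet1 encodes a membrane-anchored surface protein known as a marker of progenitor cells in the upper hair follicle. The probe also lies 197 bases upstream of the antisense gene Plet1os, on the opposite strand to it. The RefSeq window covered 54 of its 60 bases. Whether the probe lies in an exon cannot be read from the tables used here.

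Z00038074-1 was well above background on all 12 arrays. Its log2 ratios were -0.35 and -0.34 in wild type and -0.34 and -0.29 in Tabby at E14.5, then 1.63 and 2.09 against 2.00 and 1.14 at E15.5. At E16.5 they reached 3.65 and 3.62 in wild type and 3.38 and 3.52 in Tabby. The days did not overlap in either genotype, and its rise on the deposited scale was 15.9-fold.

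The other placed members lie at divergent gene starts, shown here because their strand decides which gene they can report.

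Z00067181-1: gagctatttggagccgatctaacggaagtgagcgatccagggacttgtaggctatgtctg
Z00067713-1: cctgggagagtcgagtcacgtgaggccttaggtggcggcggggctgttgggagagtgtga

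Z00067181-1 lies at chr19:3708108-3708167 on the minus strand, beginning at base 2 of the long non-coding RNA gene Gm36608 and 126 bases upstream of the protein-coding gene 1810055G02Rik on the opposite strand. The Gm36608 window covered 49 of its bases and that of 1810055G02Rik all 60. It was below background on all 4 E14.5 arrays and on 2 of the E15.5 arrays. It reached 2.30 and 1.96 in wild type and 1.70 and 1.86 in Tabby at E16.5, from values between -0.20 and -0.06 at E14.5. Z00067713-1 lies at chr16:45158742-45158801 on the plus strand, in the interval between Slc35a5 and Atg3. Atg3 encodes an enzyme of the autophagy conjugation pathway. The probe starts 87 bases before the annotated start of Atg3 on the same strand and is 69 bases from Slc35a5, which runs the other way. It was detected on all 12 arrays, and rose from values between -0.20 and -0.09 at E14.5 to 3.08 and 2.83 in wild type and 2.92 and 2.36 in Tabby. RefSeq places no gene at its position, so the transcript it reports is not known here.

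By sequence, the members resembled the array as a whole. Their median GC content was 45.0%, against 43.3% over all 42006 features. The hexamer AATAAA, the main polyadenylation signal, stood on the probe's own strand in 17 members, 9.55%, against 6.93% of all features. Across the 178 members the rise on the deposited scale had a Spearman rho of -0.003 with GC content and of -0.05 with the share reached at E15.5. These are descriptions over features that share arrays.

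Some members shared sequence, and the 178 form 172 groups when probes sharing at least 20 bases are joined. The joined members fall into 5 groups holding 11 probes. Z00075199-1, Z00023905-1 and Z00057869-1 tile 1 stretch, with runs of 40 and 46 shared bases between neighbours. On the deposited scale they rose 61.7-fold, 20.9-fold and 17.9-fold, with 36.2%, 45.6% and 48.7% of the rise reached at E15.5. At E16.5 Z00075199-1 read 5.10, 5.41, 4.56 and 5.25 while Z00057869-1 read 3.51, 3.80, 3.39 and 3.59, with wild type first in both. Z00075312-1 and Z00041697-1, which share 35 bases, rose 98.1-fold and 62.9-fold and had reached 58.0% and 54.6%. Z00075312-1 was below background on 3 of the E14.5 arrays whereas Z00041697-1 was detected on all 12. Over the 7 pairs of overlapping members the log10 rises differed by a median of 0.193 and at most 0.537, which is the size of disagreement between probes that share sequence.

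Another 6 features outside the set shared at least 20 bases with 7 members and give a second reading of the same or a near-identical sequence. All 6 rose at least 2-fold on the deposited scale, with a median of 6.93-fold, and 2 of them rose at least 8-fold. Z00025189-1, which shares 51 bases with Z00074251-1, rose 7.69-fold against 8.05-fold and misses the set by its rise. Z00056405-1, which shares 55 bases with Z00039981-1, rose 6.10-fold against 8.24-fold. Z00043331-1 shares 34 bases with Z00075743-1 and had reached 81.5% of its rise at E15.5, against 74.5%, so these probes fall on either side of the upper limit.

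The limits of the rule cut through a continuum. Just below the rise limit lay Z00075467-1 and Z00055328-1 at 7.99-fold and 7.93-fold. At the lower limit of position, Z00022887-1 and Z00041067-1 lay inside at 25.2% and 25.9% and Z00031449-1 and Z00009243-1 outside at 24.8% and 24.4%. At the upper limit, Z00026265-1 and Z00075743-1 lay inside at 74.98% and 74.5% and Z00011218-1 and Z00025525-1 outside at 75.2% and 75.4%.

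The reference channel should carry the same RNA on every array, yet it read higher at E16.5 for part of the set. In 51 members, 28.7%, the normalised Cy5 signal was higher on every E16.5 array than on every E14.5 array, against 3.07% of all tested features. It rose by more than 0.5 on the log2 scale in 31 members, 17.4%, against 0.882% of all tested features. The median member changed by -0.03 and the median tested feature by -0.04, so most members did not share this. The largest reference change was that of Z00051631-1, from 8.35 ± 0.11 to 10.92 ± 0.32 (SD, n = 4 arrays), while its eyelid signal went from 6.83 to 16.17. A rising reference signal lowers the eyelid ratio, and its part in the values was not tested.

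At E15.5 the members stood part of the way up, and the arrays disagreed on how far. On the deposited scale the median member had reached 59.3% of its rise, and on the log2 ratio scale 37.8%. For the 87 members detected on all arrays these medians were 60.7% and 49.0%, and for the others 57.4% and 28.5%, so the scales differed more for dim members. On the log2 ratio scale 44 members fell under 25% and 0 over 75%. By array, the 87 members had reached a median of 43.3% in wild-type replicate 1, 58.7% in wild-type replicate 2, 57.5% in Tabby replicate 1 and 39.9% in Tabby replicate 2. The replicates of each genotype therefore differed by more than the genotypes did.

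**Figure D2:**
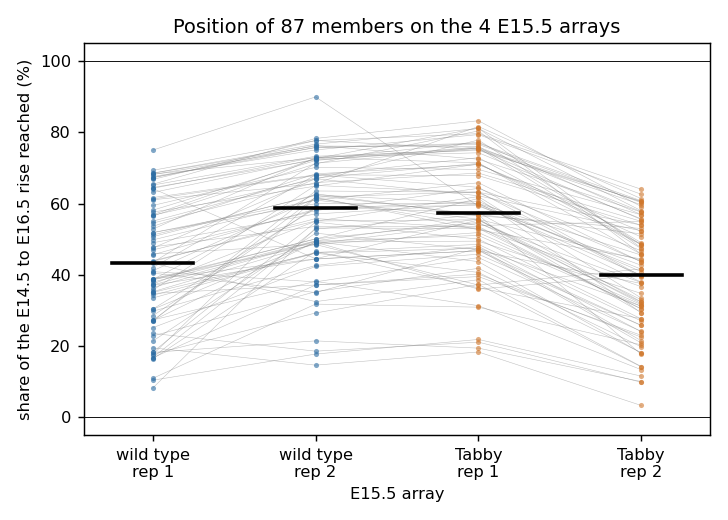
The plot shows, for the 87 steep graded risers detected on all 12 arrays, the share of the E14.5 to E16.5 rise in log2 ratio (vertical axis, %) reached on each of the 4 E15.5 arrays (horizontal axis). Thin lines join the values of a member and thick bars are medians, at 43.3%, 58.7%, 57.5% and 39.9% from left to right.

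This order of the E15.5 arrays ran through most of the set. Wild-type replicate 2 exceeded replicate 1 together with Tabby replicate 1 exceeding replicate 2 in 143 of 178 members, 80.3%, against a background of 26.2% of all tested features. Tabby replicate 1 was the highest E15.5 array in 89 members and wild-type replicate 2 in 71. Tabby replicate 2 was the lowest in 98 and wild-type replicate 1 in 70. The median difference of replicate 2 minus replicate 1 was 0.37 in wild type and -0.51 in Tabby at E15.5, against -0.01 and -0.03 at E14.5 and -0.14 and -0.05 at E16.5. Over all tested features the E15.5 differences were 0.01 and 0.00. The early-completing features showed the same order, with medians of 0.70 and -0.59, and the late ones less of it, with 0.01 and -0.10, as values set side by side without a test. The rule used the mean of the 4 arrays, not their order.

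Positions were also computed for each genotype. Over the 87 members detected on all arrays, the wild-type and Tabby shares had a Spearman rho of 0.94, computed from shared days and slides, and the rule limits the mean of these shares. The median share over all 178 was 39.0% in wild type and 37.9% in Tabby.

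Members rose somewhat less in Tabby than in wild type in these arrays. The median rise from E14.5 to E16.5 in log2 ratio was 3.01 in wild type and 2.75 in Tabby. The Tabby rise was the smaller in 143 of 178 members, and in 81 of the 87 detected on all arrays, where its median was 92.2% of the wild-type rise. On the authors' deposited scale it was the smaller in 136 members and in 78 of the 87, with median rises of 19.3-fold in wild type and 15.6-fold in Tabby. The array medians at E16.5 overlapped between genotypes, with 2.23 and 2.00 in wild type around 2.08 and 2.06 in Tabby, and no member passed the test of stage dependence given below. Members share arrays, so these counts are not independent observations. The matching shares over all tested features and over the other steep risers were not computed.

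**Figure D3:**
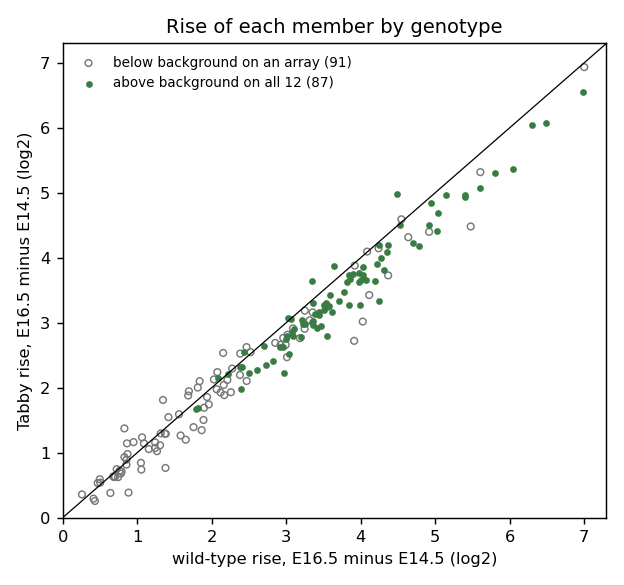
The plot sets the rise from E14.5 to E16.5 in log2 ratio in Tabby (vertical axis) against that in wild type (horizontal axis) for each of the 178 members, each a difference of 2-array means. Filled points are the 87 members above background on all 12 arrays, open points the other 91, and the line marks equal rises. Of the filled points, 81 lie below the line.

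Among the 87, the Tabby rise was the smallest share of the wild-type rise in Z00007248-1 at 75.3%, Z00029389-1 at 78.7% and Z00024719-1 at 78.8%. Z00007248-1 read -0.75 and -0.70 in wild type and -0.47 and -0.52 in Tabby at E14.5, and 2.40 and 2.08 against 1.74 and 1.73 at E16.5. Its genotypes did not overlap at either day, with Tabby higher at E14.5 and lower at E16.5. In Z00029389-1 the difference lay at E16.5, at 2.85 and 2.63 in wild type and 1.76 and 2.16 in Tabby. The largest shares were those of Z00022570-1 at 111%, Z00026928-1 at 109% and Z00031095-1 at 106%. Z00022570-1 read 2.84 and 2.80 in wild type and 3.14 and 3.21 in Tabby at E16.5.

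The comparison of Tabby with wild type within a day was tested for every feature with limma. The rise and position limits that chose the members used only the mean of both genotypes. The background flag, however, was required on each E16.5 array, so a feature undetected in either genotype at E16.5 could not be a member. All 178 members were among the 32981 features tested. At E16.5, 1 member was lower in Tabby at a Benjamini-Hochberg adjusted p under 0.05, against a background of 0.0788% of all tested features, and 0 were higher, against 0.00303%. At E14.5 and E15.5 no member passed in either direction, where 0% of all features did, and none passed for the mean difference over the 3 days, against 0.0273% of all features lower and 0.00303% higher, or for dependence of the difference on the day, against 0.00303%. At an unadjusted limma p under 0.05, 2 members passed at E14.5, both higher in Tabby, against 0.961% of all features higher and 1.44% lower. At E15.5 there were 2, both lower, against 3.02% of all features lower and 3.68% higher. At E16.5, 16 members were lower, 8.99% of the set against 2.46% of all features, and 2 were higher, against 1.5%. Over the 3 days 11 were lower and 1 higher, against 3.36% and 2.5% of all features, and 11 passed for dependence on the day, 6.18% against 3.14%.

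The direction of the differences shifted with the day. The median difference of Tabby minus wild type was 0.05 at E14.5, -0.02 at E15.5 and -0.14 at E16.5 on the log2 scale, while the median of all tested features was 0.01, 0.01 and 0.00. The number of members lower in Tabby was 53 at E14.5, 98 at E15.5 and 129 at E16.5. These are 29.8%, 55.1% and 72.5% of the set, against 46.6%, 46.6% and 49.4% of all tested features. Among the 61 steep risers of later timing the shares by day were 47.5%, 77.0% and 88.5%. Among the 70 of earlier timing they were 21.4%, 35.7% and 71.4%. At E15.5 the sign of the median turned to 0.03 with median centring of the arrays in place of loess, to 0.14 without wild-type replicate 2 and to 0.21 without Tabby replicate 2, and it was -0.21 without wild-type replicate 1 and -0.24 without Tabby replicate 1. The E16.5 median was -0.08 without wild-type E16.5 replicate 1, with 113 members lower, and -0.07 with median centring, with 124 lower.

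**Figure D4:**
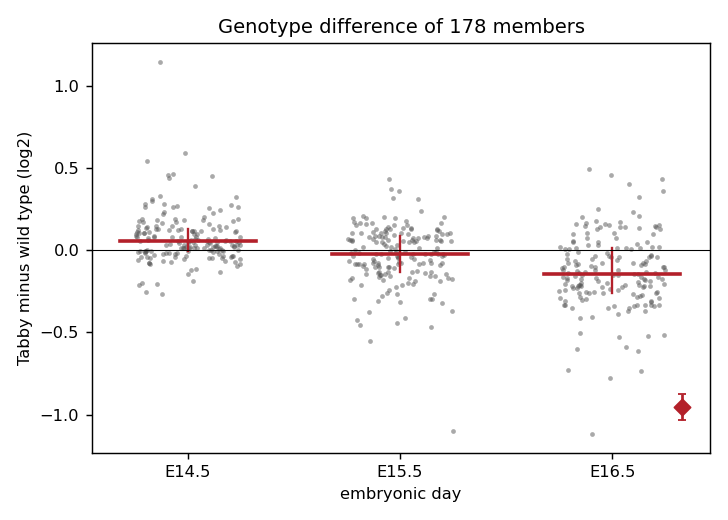
The plot shows the fitted difference of Tabby minus wild type in log2 ratio (vertical axis) for the 178 members at each day (horizontal axis). Red bars are the medians, 0.05, -0.02 and -0.14, with quartiles as thin lines, and the diamond is Z00060172-1 at E16.5, the 1 member that passed, with its standard error.

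Z00060172-1 was the member that passed. At E16.5 its log2 ratios were 3.92 and 3.74 in wild type and 2.90 and 2.86 in Tabby, so the genotypes did not overlap. Before that it was near the reference, at -0.16, -0.24, -0.14 and -0.14 at E14.5 and at -0.02, 0.16, -0.10 and -0.03 at E15.5. The difference at E16.5 was -0.95 with a standard error of 0.08 (limma adjusted p = 0.00741). It was detected in the eyelid channel on 0 of 4 arrays at E14.5, 2 of 4 at E15.5 and 4 of 4 at E16.5. As a lower limit in the eyelid channel its rise was at least 29.4-fold in wild type and at least 9.60-fold in Tabby.

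The call of Z00060172-1 depended on how the ratio was formed. The difference was -0.36 from the scanner's processed signals after loess (limma adjusted p = 0.914) and -0.35 on the authors' deposited scale (0.916), and -1.57 in the eyelid channel alone (0.0142). Settings that left the ratio as it was kept the size of the difference but also ended the call in 2 cases. It was -0.95 when only the 4 E16.5 arrays were fitted (limma adjusted p = 0.17) and -0.97 without Tabby E16.5 replicate 1 (limma adjusted p = 0.0598). The reference channel of this probe moved with its eyelid signal. At E16.5 it read 7.53 and 6.95 in wild type and 6.59 and 6.59 in Tabby, against values between 6.27 and 6.38 on the 8 earlier arrays. The part of that movement in the difference was not tested.

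The overlapping probes gave the same direction at E16.5. Z00026084-1 read 4.27 and 4.06 in wild type and 3.31 and 3.57 in Tabby, a difference of -0.73 that did not pass (limma adjusted p = 0.0767). Z00026043-1, outside the set, read 3.39 and 3.24 against 2.27 and 2.52, a difference of -0.92 that passed (limma adjusted p = 0.0254). For each of the 3 probes the wild-type and Tabby arrays did not overlap at E16.5. The share of all tested features so separated was not computed. Nothing is therefore read from a lack of overlap between genotypes, here or for other members. The 3 probes share sequence and arrays, so they are not independent measurements.

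**Figure D5:**
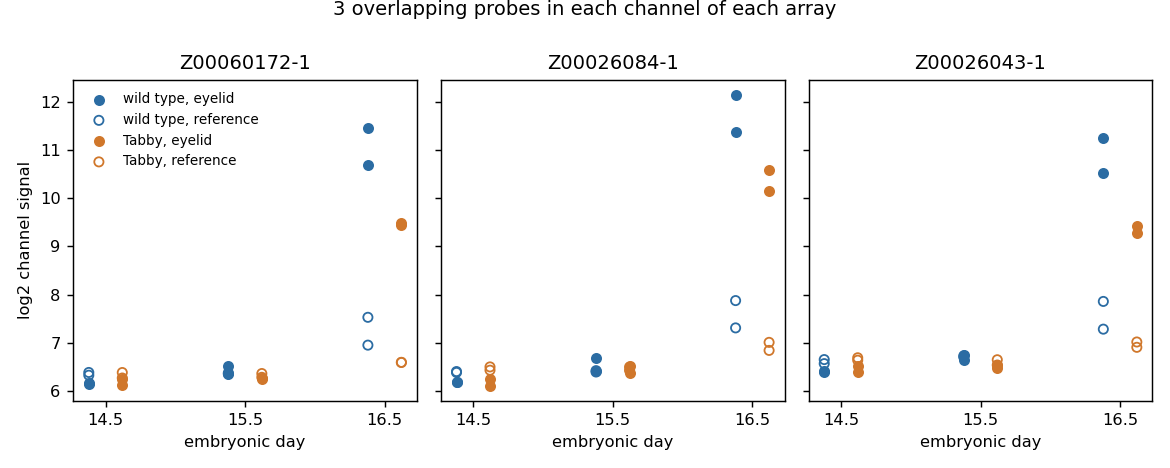
The plot shows normalised log2 signal (vertical axis) by embryonic day (horizontal axis) for Z00060172-1, Z00026084-1 and Z00026043-1. Filled points are the eyelid channel and open points the reference channel of each array, with wild type in blue and Tabby in orange. The eyelid signal of Z00060172-1 at E16.5 is 11.45 and 10.69 in wild type and 9.49 and 9.45 in Tabby, and its reference signal is also higher in wild type.

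Other members are named for the smallest p-values in each comparison and did not pass. At E16.5 Z00038600-1 read 1.11 and 0.83 in wild type and 0.40 and 0.37 in Tabby, without overlap, a difference of -0.59 (limma adjusted p = 0.0673). It was also the lower in Tabby at E15.5, at -0.23 and -0.23 against -0.04 and -0.02, a difference of -0.20 (limma adjusted p = 0.74). The largest E16.5 difference of the set, chosen after its values were seen, was that of Z00075242-1, at 2.00 and 1.59 in wild type and 0.76 and 0.60 in Tabby. Its difference of -1.12 did not pass (limma adjusted p = 0.281). The members highest in Tabby by p were Z00039191-1, at 1.66 and 1.55 against 2.11 and 1.96, and Z00030901-1, at 1.09 and 0.83 against 1.45 and 1.46, with differences of 0.43 and 0.49 (limma adjusted p = 1.00 for both).

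At E15.5 the smallest p belonged to Z00026928-1, which read 3.86 and 4.38 in wild type and 3.31 and 2.73 in Tabby, a difference of -1.10 (limma adjusted p = 0.459). It was level at E16.5, at 4.70 and 4.66 against 4.93 and 4.64. At E14.5 Z00022669-1 and Z00024703-1 were the highest in Tabby by p, with differences of 0.45 and 0.46 (limma adjusted p = 1.00 for both). Z00022669-1 read -1.64 and -1.79 in wild type and -1.19 and -1.34 in Tabby, and its genotypes overlapped at E15.5, at 0.75 and 0.98 against 0.97 and 0.47. The members lower in Tabby with the smallest p at E14.5 were Z00008117-1 at -0.27 and Z00056221-1 at -0.12, and those higher at E15.5 were Z00076569-1 at 0.17 and Z00046909-1 at 0.43. The last pair turned negative in the authors' deposited values, at -0.17 and -0.23.

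The other steep risers, by timing, gave these values. At E16.5, 10 of the 61 late risers, 16.4%, passed as lower in Tabby, against 1 of the 178 members, 0.562%, and 0 of the 70 early risers. The share of all tested features was 0.0788%. The median E16.5 difference was -0.50 in the late risers, -0.14 in the members and -0.09 in the early ones. A difference between these sets was not tested, and the late set includes Z00026043-1, which overlaps Z00060172-1. The sets were split by timing on the deposited scale. In log2 ratio at E15.5, Z00060172-1 lay between -0.10 and 0.16 and Z00026043-1 between -0.17 and 0.04. At E14.5 they lay between -0.24 and -0.14 and between -0.25 and -0.15. Both probes were thus still near the reference at E15.5.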

How the data were processed

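RNA of microdissected eyelids was measured on 12 two-colour arrays in 6 groups of 2. Per the file headers, the deposited spot intensity values and log10 ratios of red over green came from Agilent Feature Extraction 9.5.1.1. The authors' deposited table of log10 values chose the members. Its scale and centring are not given in the sources used here. How far its steps, or the offset of 50 described below, move dim features was not tested.

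Mean and background intensities were corrected with normexp (offset 50) and loess-normalised within each array in limma 3.58.1 (R 4.3.3), with 1417 control spots at weight 0. The sign was turned to log2 eyelid over reference. Signals printed for a single channel, and the lower limits, were rebuilt from the loess ratios and average intensities quantile-normalised between arrays. They are normalised levels and not raw readings. The test in the eyelid channel alone used quantile-normalised eyelid intensities instead. Features whose eyelid signal was flagged well above background throughout any group were fitted as 6 group means with eBayes, with 6 residual degrees of freedom and Benjamini-Hochberg adjustment over all features tested. A call was an adjusted p under 0.05. The script was tested on simulated data. The number of arrays limits the precision.

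Members, lists and tests were chosen with earlier results of these data known. Features were named where they were called (else smallest p by direction), the 8 largest and 2 smallest rises, nearest the rule's limits, the 3 highest and lowest E16.5 ratios, overlapping sets, or the 3 extreme Tabby shares at either end. The placed members and those said so were chosen after. Planned gene lists and cell type markers could not be used, because the features carry no gene names and no protein or genome sequence was at hand. A treatment text in the labels speaks of footpad skin, whereas the sample labels name eyelids, which are followed here. Alternatives covered background correction, normalisation, filter, arrays, replicate block and the member rule.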

Additional observations from a re-analysis of the deposited data

How the results depend on the processing

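Each test was recomputed with other processing. The E14.5 median difference of 0.05 kept its sign but moved to 0.167 with processed signals and loess, 0.164 with the Feature Extraction ratio, 0.16 with the authors' values and 0.108 over features above background on all 12 arrays. The number of members called at E16.5 went from 1 to 0 with the first 3 of these settings, where 0% of all features were called. With only the 4 arrays of the day it was 0 as well, against 0.00606% of all features. Under the filter on all 12 arrays, which tested 87 members and left out Z00060172-1, it was also 0, against 0.0275% of all features. In the eyelid channel alone 8 members were called, 4.49% against 0.212% of all features, and array weights gave 1 for stage dependence, 0.562% against 0.0152%. The rule met 118 features on normexp and loess ratios, of which 71 are members. Z00076569-1 at E15.5 turned to -0.199 with processed signals, -0.172 with both the Feature Extraction ratio and the authors' values, and -0.00683 in the eyelid channel alone. Z00046909-1 turned to -0.327 with processed signals and -0.232 with the latter pair. The causes were not tested.

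Leaving out 1 array at a time gave 0 to 7 members called at E15.5 (7 without wild-type E15.5 replicate 2, 3.93% against 6.85% of all features) and 0 to 3 at E16.5 (0 without Tabby E16.5 replicate 1, 2 without wild-type E16.5 replicate 2, 1.12% against 0.215%, and 3 without either wild-type E15.5 array, 1.69% against 0.124%). For the mean over days it gave 0 to 4 (4 without wild-type E15.5 replicate 2, 2.25% against 2.2%, 2 without wild-type E16.5 replicate 2, 1.12% against 0.094%, and 1 without wild-type E15.5 replicate 1, 0.562% against 0.0394%). For stage dependence it gave 0 to 3 (3 without wild-type E15.5 replicate 2, 1.69% against 1.6%). At E14.5 it gave 0 throughout. A lone array was assumed to vary like the other groups. With the replicate number as a block the counts were 0, 0 and 1 at the 3 days, 0 for their mean and 0 for stage dependence, as without it. The count of 1 at E16.5 is 0.562%, against 0.0667% of all features. Over the tested features, the difference of replicate 2 minus replicate 1 in wild type correlated with that in Tabby at -0.07, 0.02 and 0.24 by day. As only the E16.5 value exceeds 0.1, the numbers were not taken to pair the arrays. Dim members rest on signal near background, and their rises are known as lower limits.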
